A study of Homo sapiens with 6 samples.

Results

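The genes described are 10 enzymes that build, lengthen and desaturate fatty acids or supply the NADPH for it, taken by name from a table of 58735 features. They are ACACA and ACACB, FASN, ELOVL5 and ELOVL6, SCD, SCD5, FADS1 and FADS2, and ME1. Each name matched 1 row of the table, and all 10 passed the filter on low counts, as did 16210 features in all. RNA sequencing was done on BE(2)-C, an established human neuroblastoma cell line. The shACSS2 group held 3 libraries of cells stably infected with a lentivirus carrying a short hairpin RNA against ACSS2, and the NS group held 3 libraries of cells stably infected with a lentivirus carrying a non-silencing hairpin. Both groups had been selected with puromycin and were grown in DMEM with 10% calf serum. The labels give the NS cells as wild type and the others as ACSS2 deficient, and list no further treatment. The titles write siACSS2 where the protocol describes a lentiviral hairpin, and 1 phrase of the protocol names the knockdown line shNgBR. No source used here gives the sequence or the number of hairpins, so effects of ACSS2 loss and of the hairpin itself cannot be told apart.

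Fatty acid synthesis starts in the cytosol from acetyl-CoA, which ATP citrate lyase (ACLY) makes from citrate and ACSS2 makes from acetate. Acetyl-CoA carboxylase (ACACA in the cytosol, ACACB at the mitochondrial surface) turns it into malonyl-CoA, and FASN assembles palmitate from both with electrons from NADPH, part of which ME1, the cytosolic malic enzyme, provides. Elongases of the ELOVL family then lengthen the chain in the ER, SCD and SCD5 put the first double bond into saturated chains, and FADS1 and FADS2 desaturate dietary precursors to polyunsaturated fatty acids. Many of these genes are known targets of the transcription factors SREBP-1 and LXR.

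Library totals ran from 16617885 to 20831599 counts. ACSS2 had 75, 84 and 110 counts in shACSS2, against 366, 387 and 438 counts in NS, so the knockdown was visible in each library (log2 fold change −1.94, SE 0.145; adjusted p = 1.95e-06 by the quasi-likelihood test of edgeR with Benjamini-Hochberg correction). An exact permutation test, two-sided, gave p = 0.1 for it, the smallest that 3 against 3 allows. Of all 16210 genes tested, 2776 passed the edgeR test at an adjusted p of 0.05, of which 1213 had more RNA in shACSS2 and 1563 had less. The higher genes were 43.7% of those called, or 25.8% when library totals replaced TMM composition factors. Nothing in the labels tells separate cultures from repeats of 1 culture, so p-values measure the spread between these libraries, which may be technical. Of 11 adrenergic neuroblastoma markers, 6 averaged at least 1 CPM (counts scaled to a common library size), with a sum of 41.2 to 48.7 CPM in shACSS2 and 40.8 to 45.8 CPM in NS, while PHOX2A and TH, which adrenergic neuroblastoma cells usually express, had no count in any library. Of 7 mesenchymal or Schwann-like markers 2 reached that level. Markers of the classical lipogenic tissues were near 0. The 4 adipocyte markers summed to 0.421 to 1.49 CPM in shACSS2 and 0.90 to 1.78 CPM in NS, with ADIPOQ, FABP4 and LEP at 0, and the 3 hepatocyte markers summed to 0.441 to 0.653 CPM in shACSS2 and 0.351 to 0.635 CPM in NS. The library shACSS2 replicate 1 stood apart from shACSS2 replicates 2 and 3 in a way that followed the GC content of transcripts, and this touched several of the enzymes, as described beside them.

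The Δ9 desaturases fell in shACSS2 while ME1 and the elongase ELOVL5 rose, and the carboxylases, FASN, ELOVL6, FADS1 and FADS2 did not pass the test. Of the 10 enzymes, 2 were higher and 2 lower at an edgeR adjusted p of 0.05 over all genes, against a background of 7.48% higher, 9.64% lower and 17.1% in either direction among all genes tested. Their median log2 fold change was 0.04, beside 0.002 for all tested genes. The groups did not overlap for 5 of the 10, beside 36.3% of all tested genes. The 4 calls were made by edgeR, DESeq2 and limma-voom alike. SCD and ME1 passed with every library left out in turn, while SCD5 and ELOVL5 did not. In bulk RNA, fewer cells expressing a gene and less RNA per cell cannot be told apart.

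**Figure D1:**
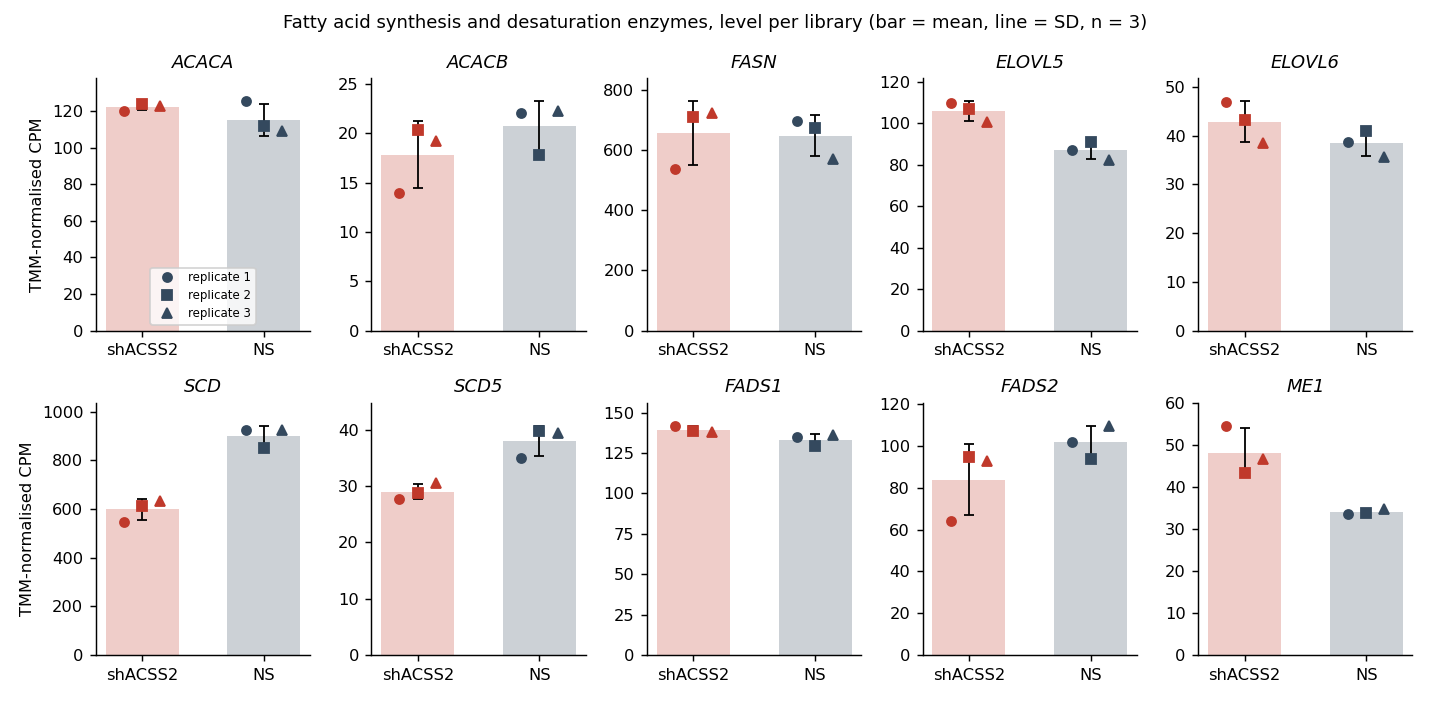
TMM-normalised CPM of the 10 enzymes in each library, shACSS2 left and NS right in each panel, with symbols for replicates 1 to 3, bars for means and lines for SD (n = 3). SCD averaged 598 CPM in shACSS2 and 899 CPM in NS, and ME1 averaged 48.2 CPM in shACSS2 and 34.0 CPM in NS. The circle of shACSS2 replicate 1 is the lowest of its group for FASN, FADS2 and ACACB, and also for SCD, SCD5 and ACACA.

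SCD (ENSG00000099194, chromosome 10, 100347124 to 100364834, plus strand, GRCh38, GENCODE v29), the stearoyl-CoA desaturase that makes oleate and palmitoleate, had 8809, 10043 and 11289 counts in shACSS2, against 16215, 16079 and 20080 counts in NS. After TMM scaling these were 549, 614 and 632 CPM in shACSS2 and 923, 850 and 926 CPM in NS. Every shACSS2 library was below every NS library. SCD fell by 33.5% (log2 fold change −0.59, SE 0.0928, 95% interval −0.79 to −0.39; edgeR adjusted p = 0.00076). The estimate ran from −0.66 to −0.53 over all 18 alternative settings and passed the threshold in each.

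SCD5 (ENSG00000145284, chromosome 4, 82629539 to 82798857, minus strand), the second human stearoyl-CoA desaturase, which is prominent in brain, stood at 27.8, 28.9 and 30.5 CPM in shACSS2, against 35.0, 39.8 and 39.4 CPM in NS. Here too the groups did not overlap. SCD5 fell by 23.7% (log2 fold change −0.39, SE 0.107, 95% interval −0.62 to −0.16; edgeR adjusted p = 0.0213). The call depended on which libraries were used. It held without shACSS2 replicate 1 (edgeR adjusted p = 0.0144) and without shACSS2 replicate 3 (edgeR adjusted p = 0.0442). Omitting NS replicate 1, NS replicate 2, NS replicate 3 or shACSS2 replicate 2 ended it, at edgeR adjusted p from 0.0511 to 0.0943, with log2 fold changes from −0.45 to −0.36.

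The promoters of both desaturase genes and of the enzymes that rose are shown because these are the genes whose RNA differed between the groups. Windows of 300 bases, from 250 before to 50 after an annotated start, were taken from RefSeq (GRCh38.p14). There were 13 windows for 9 of the 10 enzymes. FASN had no window, so its promoter was not searched. Capitals mark matches, on either strand, to the CCAAT box (CCAAT, read ATTGG on the other strand), the E-box CACGTG, the sterol regulatory element written as TCACNCCAC, and the antioxidant response element written as TGACNNNGC, to which NRF2 binds.
SCD promoter, chr10:100346983-100347282, plus strand: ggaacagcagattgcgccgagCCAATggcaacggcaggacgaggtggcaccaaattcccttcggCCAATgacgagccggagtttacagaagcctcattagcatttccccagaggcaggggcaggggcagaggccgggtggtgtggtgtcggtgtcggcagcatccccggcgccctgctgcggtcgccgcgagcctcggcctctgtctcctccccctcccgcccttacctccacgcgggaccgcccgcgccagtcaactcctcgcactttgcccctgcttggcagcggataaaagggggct
SCD5 promoter, chr4:82798747-82799046, minus strand: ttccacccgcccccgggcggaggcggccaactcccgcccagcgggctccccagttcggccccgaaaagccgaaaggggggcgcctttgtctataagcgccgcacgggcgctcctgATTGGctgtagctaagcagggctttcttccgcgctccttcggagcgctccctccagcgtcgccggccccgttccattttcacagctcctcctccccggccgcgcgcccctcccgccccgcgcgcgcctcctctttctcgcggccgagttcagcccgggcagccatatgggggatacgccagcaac
ELOVL5 promoter, chr6:53348901-53349200, minus strand: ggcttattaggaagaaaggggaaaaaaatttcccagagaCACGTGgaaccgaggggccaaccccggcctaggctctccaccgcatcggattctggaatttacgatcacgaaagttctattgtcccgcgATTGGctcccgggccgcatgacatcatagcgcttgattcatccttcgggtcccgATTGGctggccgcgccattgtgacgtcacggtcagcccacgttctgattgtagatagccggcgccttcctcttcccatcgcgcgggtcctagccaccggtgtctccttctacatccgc
ME1 promoter, chr6:83431002-83431301, minus strand: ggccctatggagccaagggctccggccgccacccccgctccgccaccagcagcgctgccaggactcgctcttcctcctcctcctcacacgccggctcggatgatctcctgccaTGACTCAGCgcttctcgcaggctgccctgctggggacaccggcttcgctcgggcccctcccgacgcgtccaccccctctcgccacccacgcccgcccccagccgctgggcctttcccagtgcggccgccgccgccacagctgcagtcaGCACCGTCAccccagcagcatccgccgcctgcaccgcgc

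The SCD window held CCAAT boxes at −229 and −186 from the start, the SCD5 window 1 at −135, and the ELOVL5 window held a pair at −122 and −68 with an E-box at −211. CCAAT was also found in windows of ACACA, ACACB and FADS2, which did not pass the test. It was absent from those of ELOVL6, FADS1 and ME1. CCAAT occurs in 34.6% of the 35116 RefSeq promoter windows and the E-box in 7.26%. The ME1 window held TGACTCAGC at −137 and a second match at 12 bases after the start, a motif present in 13.3% of windows. The sterol element in this spelling, present in 1.13% of windows, was found in none of the 13 windows, which do not include FASN. These matches describe the sequence only, and the data hold no measurement of binding.

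A short match in the 3′ UTR, picked beforehand from these same fold changes for its frequency among genes that fell, was looked for in the longest annotated UTR of each enzyme (GENCODE v29). It is ATGCTCA or TGCTCAA, and 18.0% of the 13263 tested genes with a UTR of at least 50 bases hold it. Among the 10 enzymes SCD and ELOVL6 held it, once each, which is why their sites are shown, with the match in capitals and GRCh38 coordinates.
SCD site, chr10:100362620-100362648, plus strand: ctgcacacagaATGCTCAgggtcactgaa
ELOVL6 site, chr4:110047438-110047466, minus strand: ggagagacaagATGCTCAggttactattt

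SCD, with the match, fell, and ELOVL6, with the match, did not pass the test, at 0.16 on the log2 scale. As the match was picked from these same fold changes, the fall of SCD is no test of it. The UTRs searched were 3901 bases long for SCD and 5492 bases for ELOVL6, beside a median of 1393 bases for tested genes. SCD5, which fell, has no match in its UTR of 1788 bases. ACSS2 has none in 748 bases. Which UTR these cells use was not examined.

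ME1 (ENSG00000065833, chromosome 6, 83210389 to 83431071, minus strand), the NADP-dependent malic enzyme of the cytosol, had 877, 708 and 834 counts in shACSS2, against 589, 640 and 755 counts in NS. Its level was 54.6, 43.3 and 46.7 CPM in shACSS2 and 33.5, 33.8 and 34.8 CPM in NS. All shACSS2 libraries were above all NS libraries, and the NS libraries lay close together. ME1 rose by 41.5% (log2 fold change 0.50, SE 0.11, 95% interval 0.27 to 0.73; edgeR adjusted p = 0.00671). The rise was 0.40 without shACSS2 replicate 1, the highest library, and it passed the test in every setting, with edgeR adjusted p up to 0.0489 without NS replicate 1.

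ELOVL5 (ENSG00000012660, chromosome 6, 53267398 to 53349179, minus strand) lengthens polyunsaturated and monounsaturated chains. It stood at 110, 107 and 101 CPM in shACSS2, against 86.9, 91.1 and 82.4 CPM in NS. The groups did not overlap, and ELOVL5 rose by 21.9% (log2 fold change 0.29, SE 0.0934, 95% interval 0.09 to 0.48; edgeR adjusted p = 0.0463). That call lies near the threshold. It ended without NS replicate 1, NS replicate 2, NS replicate 3, shACSS2 replicate 2 or shACSS2 replicate 3 (edgeR adjusted p from 0.059 to 0.185), and also with library totals, where the log2 fold change was 0.21 (edgeR adjusted p = 0.118) and with no count filter (0.0721). It held without shACSS2 replicate 1, at 0.26 (edgeR adjusted p = 0.0205). ELOVL6, the elongase that turns palmitate into stearate, the substrate of SCD, had 46.8, 43.2 and 38.4 CPM in shACSS2, against 38.8, 40.9 and 35.7 CPM in NS. Its groups overlapped (log2 fold change 0.16, 95% interval −0.08 to 0.39; edgeR adjusted p = 0.35).

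**Figure D2:**
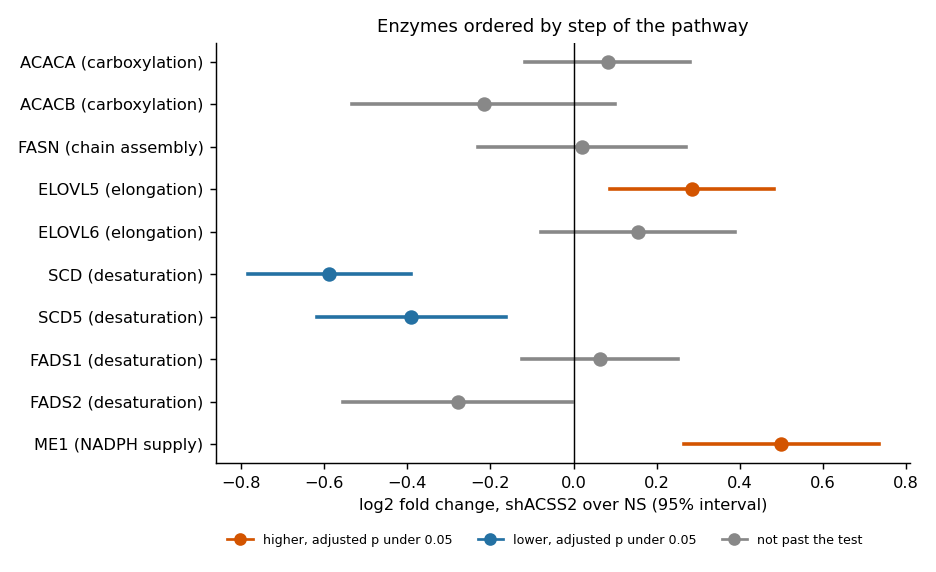
Log2 fold change, shACSS2 over NS, of the 10 enzymes ordered by the step they catalyse, with 95% intervals from the edgeR fit. SCD and SCD5 lie below 0, at −0.59 and −0.39, ME1 and ELOVL5 lie above 0, at 0.50 and 0.29, and grey points did not pass the test.

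The enzymes that make palmitate showed no difference past the test. FASN (chromosome 17, 82078333 to 82098332, minus strand), the multifunctional synthase, stood at 536, 712 and 724 CPM in shACSS2, against 698, 674 and 570 CPM in NS. The lowest and the highest of the 6 values were both shACSS2 libraries. Its log2 fold change was 0.02 (SE 0.118, 95% interval −0.23 to 0.27; edgeR adjusted p = 0.925), was −0.05 with library totals, and was 0.15 without shACSS2 replicate 1 and −0.06 without NS replicate 3, so these data give FASN no direction. ACACA (chromosome 17, 37084988 to 37406818, minus strand), the cytosolic carboxylase, had 120, 124 and 123 CPM in shACSS2, against 125, 112 and 109 CPM in NS, so its groups overlapped (log2 fold change 0.08, 95% interval −0.12 to 0.28; edgeR adjusted p = 0.582). ACACB (chromosome 12, 109116595 to 109268226, plus strand), whose malonyl-CoA restrains fatty acid entry into mitochondria, had 13.9, 20.3 and 19.2 CPM in shACSS2, against 22.0, 17.8 and 22.3 CPM in NS, with overlap as well (log2 fold change −0.22, 95% interval −0.53 to 0.10; edgeR adjusted p = 0.335). Without shACSS2 replicate 1 the value for ACACB was −0.07.

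The genes of the front-end desaturases overlap on chromosome 11, on opposite strands. FADS1 (61799625 to 61829318, minus strand), which makes arachidonate and eicosapentaenoate, had 142, 139 and 138 CPM in shACSS2, against 135, 129 and 136 CPM in NS. All its shACSS2 values were above all NS values, by a small margin (log2 fold change 0.06, 95% interval −0.12 to 0.25; edgeR adjusted p = 0.663), and with library totals the value was −0.01. FADS2 (61792980 to 61867354, plus strand), which performs the first desaturation of linoleate and linolenate, had 64.3, 94.8 and 92.7 CPM in shACSS2, against 102, 93.7 and 110 CPM in NS. The library shACSS2 replicate 1 lay far below the NS range and shACSS2 replicate 3 just below it, so the groups overlapped through shACSS2 replicate 2. FADS2 did not pass the test (log2 fold change −0.28, 95% interval −0.55 to −0.00308; unadjusted p = 0.0478, edgeR adjusted p = 0.148). Without shACSS2 replicate 1 the log2 fold change was −0.12 (edgeR adjusted p = 0.309). Exons of FADS1 and FADS2 overlap over 490 bases, 4.79% of the exon bases of FADS1 and 4.44% of those of FADS2, and no source used here says whether counting used strand, so reads from that stretch could belong to either gene.

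The deviation of shACSS2 replicate 1 followed GC content among the enzymes as it did among all genes. FASN, FADS2 and ACACB have the most GC-rich transcripts of the 10, at 65.3%, 60.7% and 54.7%, and in shACSS2 replicate 1 they were lower than the mean of shACSS2 replicates 2 and 3 by a log2 difference of −0.42, −0.54 and −0.50. ME1, ELOVL6 and ELOVL5, at 39.5%, 41.2% and 41.7% GC, were higher there by 0.28, 0.20 and 0.08. For FASN, FADS2 and ACACB this deviation exceeded the whole range of the NS libraries, which was 0.29, 0.23 and 0.32 on the same scale. It did so as well for ME1, SCD and ELOVL6, whose NS ranges were 0.05, 0.12 and 0.196. For SCD the deviation was −0.18 and for SCD5 −0.09. The Spearman coefficient of the deviation with GC content was −0.85 over the 10 enzymes and −0.61 over 16201 tested genes, whose median transcript GC content was 49.0%. Tested genes of at most 40% GC deviated by a median of 0.30, and those above 60% by −0.33. The points share the same libraries, and the part of RNA quality or library preparation in this was not tested.

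**Figure D3:**
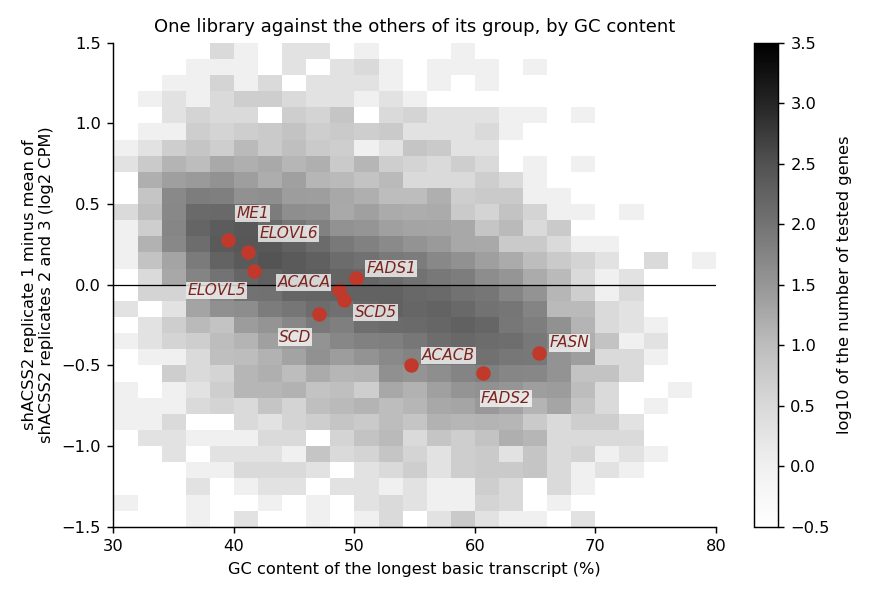
Log2 CPM of shACSS2 replicate 1 minus the mean of shACSS2 replicates 2 and 3 (y axis) against the GC content of the longest basic transcript in percent (x axis), for the 10 enzymes (red) over the number of tested genes per cell of the plane (grey, log10 scale). Genes of low GC content such as ME1 (0.28) lie above 0 and GC-rich ones such as FADS2 (−0.54) below it, and genes beyond the axes are not drawn.

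An edgeR fit with offsets for GC content and gene length in each library kept the 4 calls and added 2. SCD stood at −0.61 and SCD5 at −0.44 (edgeR adjusted p = 0.00152 for SCD5), ME1 at 0.46 and ELOVL5 at 0.24 (edgeR adjusted p = 0.0151). FADS2 moved to −0.13, ACACB to −0.03 and FASN to 0.14, all still not past the test. ACACA, at 0.24 (edgeR adjusted p = 0.0143), and FADS1, at 0.18 (edgeR adjusted p = 0.044), were past it as higher in that fit, which called 6 of the 10 enzymes and 4343 genes in all.

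Set per kilobase of annotated exons, the levels of the enzymes spanned a wide range. In shACSS2 the order was SCD at 112 ± 8.22 CPM per kilobase, FASN at 70.2 ± 11.2, ELOVL5 at 27.7 ± 1.23, ME1 at 14.3 ± 1.72, FADS1 at 13.6 ± 0.218, ACACA at 9.40 ± 0.134, FADS2 at 7.61 ± 1.55, SCD5 at 6.77 ± 0.316, ELOVL6 at 5.87 ± 0.578 and ACACB at 1.23 ± 0.234 (SD, n = 3). The ranges of ME1 and FADS1 overlapped, as did those of FADS2 and SCD5. In NS the order was SCD at 168 ± 8.07 CPM per kilobase, FASN at 69.2 ± 7.26, ELOVL5 at 22.8 ± 1.13, FADS1 at 13.0 ± 0.358, ME1 at 10.1 ± 0.199, FADS2 at 9.24 ± 0.722, ACACA at 8.88 ± 0.67, SCD5 at 8.87 ± 0.626, ELOVL6 at 5.27 ± 0.359 and ACACB at 1.43 ± 0.174 (SD, n = 3). There the ranges of FADS2, ACACA and SCD5 overlapped with their neighbours. SCD was thus the most abundant of the 10 in both groups and ACACB the least. With the longest transcript as the length, chosen after the data were seen, FADS1 was at 30.8 and FADS2 at 23.1 CPM per kilobase in shACSS2, and at 29.5 and 28.1 in NS. Their exon unions span 10.2 kilobases for FADS1 and 11.03 for FADS2, against 4.53 and 3.63 for the longest transcripts. ELOVL5 was then at 34.3 in shACSS2 and 28.2 in NS, where its range overlapped those of FADS1 and FADS2. In NS, ME1 at 10.1 then lay below SCD5 at 12.3 and ACACA at 11.6. The order of the enzymes ranked between FASN and ELOVL6 thus depends on the length used, while FASN and ELOVL6 themselves kept their places. Together the 10 enzymes took 0.161%, 0.187% and 0.192% of all counts in shACSS2, against 0.226%, 0.209% and 0.215% in NS, and SCD and FASN made up 65.2% to 69.7% of their counts in shACSS2 and 72.4% to 73.7% in NS.

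Ratios of paralogous enzymes within a library do not depend on the scaling between libraries. SCD5 had 5.07, 4.71 and 4.82 counts per 100 counts of SCD in shACSS2, against 3.79, 4.69 and 4.26 in NS. The groups were separate, but only just, and the log2 ratio differed by 0.20, and by 0.12 without NS replicate 1. FADS2 had 45.3, 68.5 and 67.2 counts per 100 of FADS1 in shACSS2, against 75.7, 72.5 and 80.6 in NS, a log2 difference of −0.36 in which shACSS2 replicate 1 was again the lowest. Without that library the difference was −0.17. ELOVL6 had 42.6, 40.5 and 38.2 counts per 100 of ELOVL5 in shACSS2, against 44.6, 44.9 and 43.3 in NS, a log2 difference of −0.13 with no overlap. For ACACB over ACACA the groups overlapped, with 11.6, 16.4 and 15.7 counts per 100 in shACSS2 and 17.6, 15.95 and 20.45 in NS, a log2 difference of −0.31, or −0.16 without shACSS2 replicate 1. Exact two-sided permutation tests gave p = 0.1 for the first 3 ratios, the smallest that 3 against 3 libraries allow, and p = 0.2 for ACACB over ACACA (0.133 and 0.2 when adjusted over the 4 ratios), so none could pass 0.05.

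**Figure D4:**
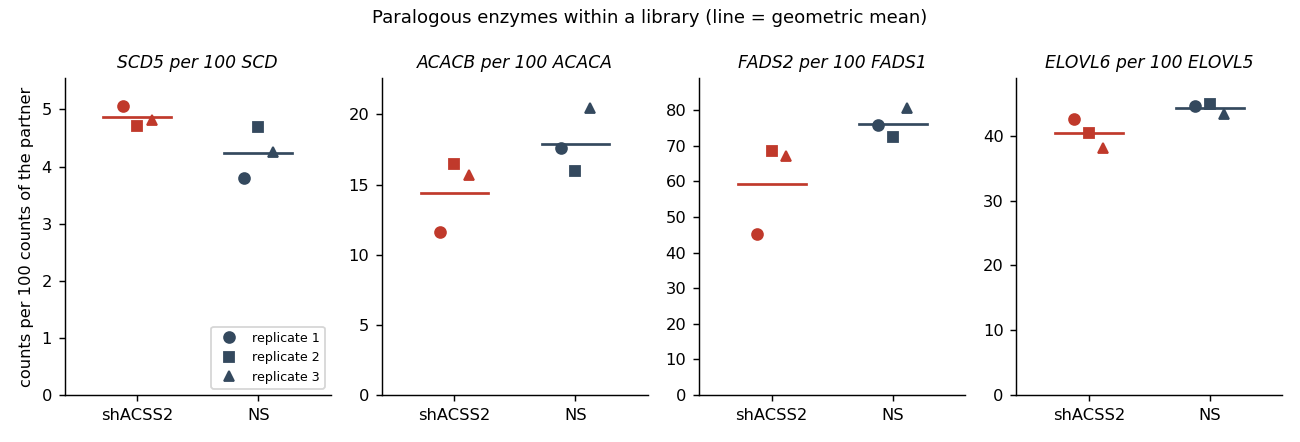
Counts of 1 paralog per 100 counts of its partner in each library, shACSS2 left and NS right, with symbols for replicates and lines for geometric means. SCD5 per 100 SCD lies between 4.71 and 5.07 in shACSS2 and between 3.79 and 4.69 in NS.

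The enzymes next to this pathway were read from lists of known members. The share of all tested genes to set beside the counts of each list is 7.48% higher and 9.64% lower. For the supply of cytosolic acetyl-CoA and citrate, 0 of 6 genes were higher, 3 were lower and 3 did not pass the test (median log2 fold change −0.18). ACSS2 itself is one of the 3 lower genes. CS, the mitochondrial citrate synthase, fell to 340 ± 17.0 CPM in shACSS2, against 442 ± 20.9 CPM in NS (SD, n = 3 each; log2 fold change −0.38; edgeR adjusted p = 0.0107), a call that ended without NS replicate 1 (0.0527) or NS replicate 3 (0.0612). AACS, which activates acetoacetate for lipid synthesis, fell by 0.33 on the log2 scale (edgeR adjusted p = 0.04), a call that ended on omission of any library other than shACSS2 replicate 1 (0.0681 to 0.135), with no count filter (0.0793) and with the GC and length offsets, where the value was −0.12 (0.325). ACLY, the main source of cytosolic acetyl-CoA, had 674, 678 and 684 CPM in shACSS2, against 675, 655 and 660 CPM in NS. Its log2 fold change was 0.03 (95% interval −0.15 to 0.21; edgeR adjusted p = 0.83), and −0.04 with library totals. Of the other NADPH sources, 0 of 5 tested genes passed the test in either direction (median −0.04). Among them MTHFD1, a folate enzyme, had 420, 400 and 403 CPM in shACSS2, against 347, 361 and 366 CPM in NS (log2 fold change 0.19; edgeR adjusted p = 0.144), and 0.27 with the GC and length offsets (edgeR adjusted p = 0.00531). PGD of the pentose phosphate pathway stood at 144 ± 2.23 CPM in shACSS2 and 149 ± 3.52 CPM in NS (SD, n = 3 each; log2 fold change −0.04).

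Among partners and regulators of acetyl-CoA carboxylase, 3 of 12 tested genes were higher, 2 lower and 7 not past the test, with a median of 0.23. HLCS, which attaches the biotin that carboxylases need, had 26.1, 23.9 and 24.8 CPM in shACSS2, against 35.1, 35.3 and 35.3 CPM in NS. It fell by 0.50 on the log2 scale (SE 0.105; edgeR adjusted p = 0.0051). MLYCD, the decarboxylase that destroys malonyl-CoA, had 6.29, 9.11 and 8.85 CPM in shACSS2, against 14.3, 14.2 and 12.4 CPM in NS, and fell by 0.75 (SE 0.161; edgeR adjusted p = 0.00574). Both falls passed with every library left out. MID1IP1, which promotes polymerisation of acetyl-CoA carboxylase, rose by 0.38 (edgeR adjusted p = 0.0135), a call that ended without NS replicate 1, NS replicate 3, shACSS2 replicate 2 or shACSS2 replicate 3 (0.0528 to 0.0894). COP1, a ubiquitin ligase that acts on acetyl-CoA carboxylase in mouse fat, rose by 0.40 (edgeR adjusted p = 0.0132), and lost the call without NS replicate 1 (0.0961) or NS replicate 3 (0.0531).

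Other genes of the elongation cycle went both ways, with 2 of 9 higher, 1 lower and 6 not past the test (median 0.13). HSD17B12, the ketoacyl-CoA reductase that works with the elongases, had 78.0, 63.3 and 71.3 CPM in shACSS2, against 91.4, 106 and 98.8 CPM in NS. It fell by 0.48 (SE 0.105; edgeR adjusted p = 0.00645) and passed with every library left out. ELOVL1, which makes very long saturated chains, rose by 0.42 (edgeR adjusted p = 0.015), which ended on omission of NS replicate 1, NS replicate 3 or shACSS2 replicate 3 (0.0529 to 0.0994). TECR, the enoyl-CoA reductase of the cycle, rose by 0.32 (edgeR adjusted p = 0.025), which ended with library totals (0.0655) and on omission of NS replicate 1, NS replicate 3, shACSS2 replicate 2 or shACSS2 replicate 3 (0.0806 to 0.131). Among other desaturases and their electron donors, 2 of 8 were higher, 0 lower and 6 not past the test (median 0.22). FADS3, a relative of FADS1 and FADS2 that desaturates sphingoid bases, had 24.2, 29.6 and 31.1 CPM in shACSS2, against 19.9, 21.3 and 21.7 CPM in NS (log2 fold change 0.43; edgeR adjusted p = 0.0249), and lost the call with library totals (0.0572) and without any library other than shACSS2 replicate 1 (0.0555 to 0.131). CYB5R4, a cytochrome b5 reductase, rose by 0.39 (edgeR adjusted p = 0.0298), which ended with library totals (0.0653) and on omission of NS replicate 1, NS replicate 3 or shACSS2 replicate 2 (0.061 to 0.135).

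The separate mitochondrial pathway, which makes the octanoyl precursor of lipoate, had 3 of 10 genes higher, 0 lower and 7 not past the test (median 0.20). OXSM, its ketoacyl synthase, had 35.2, 28.7 and 30.5 CPM in shACSS2, against 22.0, 22.1 and 19.3 CPM in NS. It rose by 0.57 (SE 0.119; edgeR adjusted p = 0.00485) and passed with every library left out. MCAT, the malonyl transferase, rose by 0.43 (edgeR adjusted p = 0.0124), and lost the call without NS replicate 3 (0.0857). NDUFAB1, the acyl carrier protein and also a subunit of complex I, rose by 0.37 (edgeR adjusted p = 0.0418), and lost the call with library totals (0.0702) and on omission of NS replicate 1, NS replicate 3, shACSS2 replicate 1 or shACSS2 replicate 2 (0.0808 to 0.21).

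Of 21 genes of the transcriptional control of lipogenesis, a list that holds transcription factors together with proteins that process or retain SREBP, 2 were higher, 2 lower and 17 not past the test (median −0.08). SREBF1, which encodes SREBP-1, had 40.3, 56.9 and 53.4 CPM in shACSS2, against 53.6, 55.5 and 50.2 CPM in NS (log2 fold change −0.08, 95% interval −0.34 to 0.18; edgeR adjusted p = 0.695), and 0.06 without shACSS2 replicate 1. SREBF2, which encodes SREBP-2, had 167, 230 and 232 CPM in shACSS2, against 251, 242 and 249.1 CPM in NS, with no overlap (log2 fold change −0.24; edgeR adjusted p = 0.164), and −0.10 without shACSS2 replicate 1. MBTPS2, the protease that makes the second cut of SREBP precursors, had 57.9, 46.0 and 44.4 CPM in shACSS2, against 70.0, 77.1 and 74.5 CPM in NS. It fell by 0.58 (SE 0.113; edgeR adjusted p = 0.00328) and passed with every library left out. INSIG1, an SREBP target whose product holds SREBP in the ER, rose by 0.33 (edgeR adjusted p = 0.022), which ended with library totals (0.0572) and without NS replicate 1, NS replicate 3, shACSS2 replicate 2 or shACSS2 replicate 3 (0.0725 to 0.14). PPARG, a nuclear receptor, rose by 0.36 (edgeR adjusted p = 0.0369), and lost the call with library totals (0.0856), with no count filter (0.0548) and on omission of any of those 4 libraries (0.0669 to 0.174). MLXIPL, the carbohydrate-responsive factor ChREBP, fell by 0.45 (edgeR adjusted p = 0.0458), and lost the call with upper quartile scaling (0.0525) and without any library other than NS replicate 2 (0.0501 to 0.225).

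Genes of cholesterol synthesis and uptake, which SREBP-2 activates, showed 0 of 14 higher, 1 lower and 13 not past the test (median 0.03). HMGCS1, the hydroxymethylglutaryl-CoA synthase, had 43.6, 32.8 and 35.6 CPM in shACSS2, against 51.9, 52.8 and 51.7 CPM in NS. It fell by 0.48 (edgeR adjusted p = 0.0106), and lost the call without NS replicate 1 (0.0503). Of the genes that activate fatty acids or place them in glycerolipids, 1 of 16 was higher, 1 lower and 14 not past the test (median −0.16). PNPLA3, a lipid droplet protein and known SREBP-1 target, had 14.1, 12.8 and 15.2 CPM in shACSS2, against 19.0, 21.0 and 22.9 CPM in NS. It fell by 0.58 (SE 0.128; edgeR adjusted p = 0.00723) and passed with every library left out. ACSL4, which activates arachidonate, had 143, 98.0 and 101 CPM in shACSS2, against 85.7, 83.0 and 85.7 CPM in NS. It rose by 0.43 (edgeR adjusted p = 0.0302), by 0.23 without shACSS2 replicate 1, and lost the call with library totals (0.0591) and on omission of any NS library (0.0826 to 0.107).

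**Figure D5:**
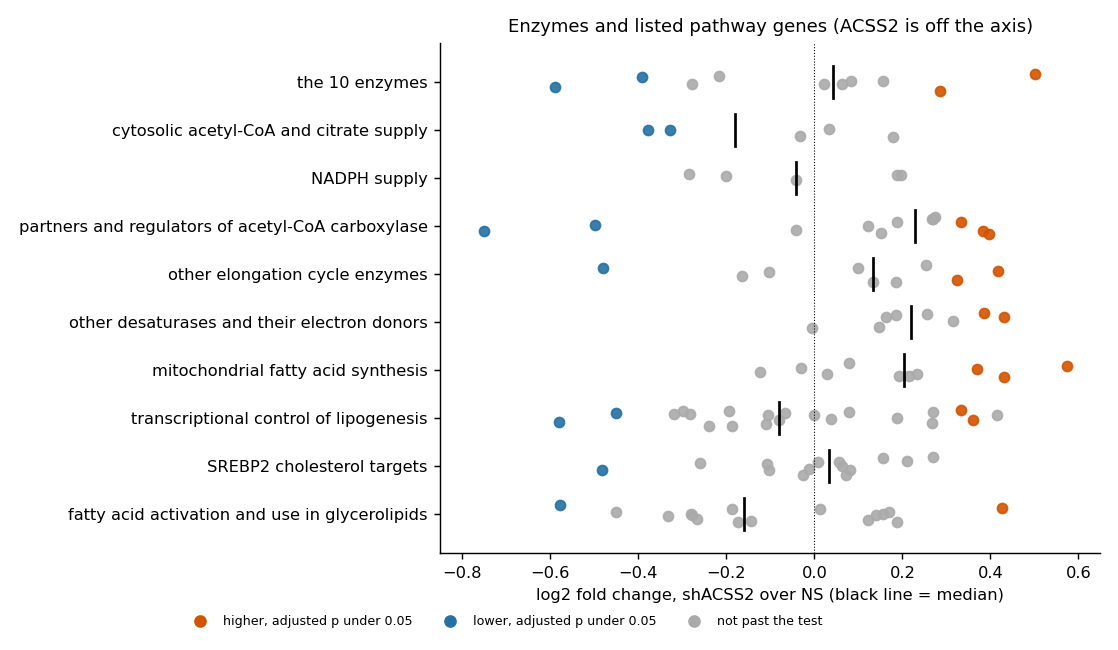
Log2 fold change, shACSS2 over NS, of the 10 enzymes (top) and of the tested genes of 9 lists, 1 point a gene, coloured by the edgeR call, with black lines for medians. ACSS2, at −1.94, lies beyond the axis, and the medians of the lists run from −0.18 to 0.23.

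Among 11886 other genes averaging 5 CPM or more, those whose log2 CPM followed an enzyme most closely over the 6 libraries are given as a description. For FASN they were MSI1 (Pearson r 0.9985), MBOAT7 (0.985) and HSD11B2 (0.984), all with transcripts of at least 59.2% GC and none past the test. For SCD they were the pseudogene CRYBB2P1 (0.998), CACNA2D2 (0.998) and TMEM121B (0.998), all lower in shACSS2, by −0.52, −0.65 and −1.31 on the log2 scale (adjusted p of edgeR 0.00801, 0.00319 and 0.000397). For ACACA they included GRTP1 (0.98) and COL4A1 (0.971), neither past the test. All points share the same 6 libraries, and the enzymes' difference between groups and the deviation of shACSS2 replicate 1 enter every coefficient.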

How the data were processed

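RNA of 6 libraries (3 shACSS2, 3 NS) was sequenced after a SMARTER mRNA preparation, per the labels' protocols. The authors deposited a table of whole-number read counts per gene, with no normalisation. The submitters' processing notes name build hg19 and list HISAT2 2.0.5 and fastp, then DESeq2 (version 4.3.1 in the notes) and featureCounts 1.5.0-p3, without order. No source used here gives the setting for strand or for multiply mapped reads. All 58735 identifiers were found in GENCODE v29 (GRCh38), which supplied positions, lengths, GC content and UTRs, and 27 names altered by spreadsheet software were restored. The table itself gives no coordinates.

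The test on counts was that of edgeR 4.0.16 under R 4.3.3 (TMM, default expression filter, robust quasi-likelihood F test, group as the only term) with Benjamini-Hochberg adjustment over 16210 genes. CPM are TMM-normalised, except marker sums. The standard error divides the log2 fold change by the root of F, and the 95% intervals use the test's degrees of freedom. Log2 CPM used a prior count of 2, and ratios added 0.5 counts. The fits were tested on simulated data. The alternatives were other scalings and filters, DESeq2 1.42.0, limma 3.58.1 with voom, an adjusted p of 0.01, omission of mitochondrial genes or of each library, a replicate block, and loess offsets (span 0.3) for GC content and length. Chi-square per degree of freedom between libraries of a group was 4.28 to 17.3, so no pair looked like 1 library deposited more than once; this does not show separate cultures. Tables and figures used Python 3.11.15 with scipy 1.17.1. Named genes are all 10 enzymes, SREBF1, SREBF2, INSIG1, ACLY and ACSS2, and from each list up to 4 members past the test of at least 1 CPM by smallest p, or else the 2 most abundant. Some genes that this rule or the marker lists hold are not reported here. Enzymes, lists and tests were chosen with earlier results of these data known.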

Additional observations from a re-analysis of the deposited data

How the results depend on the processing

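Of the 18 alternatives, 13 left the number of all genes called within 1.5 times of 2776. It was 1010 at an adjusted p of 0.01, 4343 with GC and length offsets and 4488 when these were joined to the replicate block, and leaving out a library gave 1018 (without NS replicate 1) to 3931 (without shACSS2 replicate 1), with 1151 without NS replicate 3. The number of enzymes called, 4 of 10, was 2 at an adjusted p of 0.01, 2 to 4 with a library left out, and 6 with GC and length offsets. Deviations of same-numbered libraries correlated at −0.043, −0.066 and 0.112, and those of differently numbered libraries at −0.123 to 0.158. These values show no sign that the replicate numbers pair the libraries, but cannot exclude it. The replicate block, with 2923 genes and 3 enzymes called, ended the call of ELOVL5 (edgeR adjusted p = 0.0657), and among the listed genes those of AACS (0.0629) and PPARG (0.051). Joined to the offsets, it called 5 enzymes and ended the call that the offsets alone gave FADS1 (0.179, edgeR adjusted p = 0.0559). Directions turned only where no test was passed: with library totals for ACLY (−0.041), FADS1 (−0.01) and FASN (−0.05), for FASN without NS replicate 3 (−0.064), shACSS2 replicate 2 (−0.037) or shACSS2 replicate 3 (−0.052; up to 0.15 without shACSS2 replicate 1), and for SREBF1 without shACSS2 replicate 1 (0.057; down to −0.176 without shACSS2 replicate 2) and with the replicate block and offsets (0.001). ACSS2 kept its direction in all 18 alternatives. The 4 ratios kept theirs in the 7 settings tried for them, which were no added counts and the omission of each library. They were not computed with the GC and length offsets. The offsets remove any true difference that follows GC content or length. With 3 libraries a group the SE of the enzymes' log2 fold changes was 0.0887 to 0.149, which limits the size of change that could be detected.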
